A study of Mus musculus with 14 samples.

Results

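The guanylate-binding proteins (Gbp genes) and the immunity-related GTPases (Irg genes) are GTP-hydrolysing proteins that cells make in response to interferon. Of the 55536 Ensembl genes in the deposited count table, 10 were taken as members by matching their identifiers to the symbols of GENCODE M21: Gbp2, Gbp3, Gbp5, Gbp6, Gbp7 and Gbp9, the regulatory Irgm1, Irgm2 and Igtp, and the effector Iigp1. The rule uses no measured value, although the members were chosen with earlier results of these data known. All 10 passed the filter of at least 10 counts over the libraries.

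Gbp proteins assemble on the membranes of vacuoles and bacteria, help to break them open, and promote inflammasome assembly in infected cells. Iigp1 coats and disrupts the vacuoles of intracellular parasites, and the Irgm proteins and Igtp hold such effectors inactive on the cell's own membranes. Both families are switched on mainly by interferon-γ, and also by type I interferon, and in brain the responding cells include endothelium, microglia and astrocytes. Promoters of such genes often hold the interferon-stimulated response element (ISRE) or the gamma-activated site (GAS).

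The promoters that carry these elements are shown because all 7 members that could be examined hold an ISRE before the start of transcription. Promoters came from RefSeq (GRCm38.p6), and each was read over the 250 bases before the start. Motifs were searched on both strands as TTTC, any 2 bases and TTTC, or its reverse complement GAAA, any 2 bases and GAAA, for the ISRE, and as TTCNNNGAA for the GAS. Entries existed for 7 members with 8 promoters in all, and for Gbp6, Gbp9 and Iigp1 none was used here. The lines below give 30 bases around the first ISRE on the strand of the gene, 5′ to 3′, with every ISRE match in capitals.
Gbp2, plus strand, chr3:142620594-142620623: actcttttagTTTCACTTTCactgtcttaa
Gbp3, plus strand, chr3:142559989-142560018: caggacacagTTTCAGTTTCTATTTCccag
Gbp5, plus strand, chr3:142496759-142496788: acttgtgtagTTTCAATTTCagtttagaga
Gbp7, plus strand, chr3:142530273-142530302: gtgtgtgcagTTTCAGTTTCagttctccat
Irgm1, minus strand, chr11:48871431-48871460: cctgtttcaaGAAATAGAAACCGAAActga
Irgm2, plus strand, chr11:58214903-58214932: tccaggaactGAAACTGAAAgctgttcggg
Igtp, plus strand, chr11:58199512-58199541: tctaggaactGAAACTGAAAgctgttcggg

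The ISRE read in the TTTC orientation in the 4 Gbp genes and in the GAAA orientation in the 3 Irg genes. It ended 49 bases before the start in Gbp2, 43 in Gbp7, 54 in Irgm2, 24 in Igtp and 155 in Gbp5. Gbp3 and Irgm1 each held a pair of overlapping matches, at 35 and 29 bases and at 20 and 14 bases before the start. An ISRE lay in 7 of the 8 member promoters (87.5%), against 2.98% of all 32851 RefSeq promoters of the same length. The ISRE was also frequent among related genes, in 6 of 10 promoters of other interferon-inducible GTPases and 11 of 31 of other interferon-stimulated genes (35.5%). A GAS lay in 4 of the 8 (50.0%), those of Gbp5, Gbp7, Irgm2 and Igtp, against 7.02% of all promoters, 40.0% in the other GTPases and 16.1% in the other interferon-stimulated genes. The windows of Gbp2, Gbp3, Gbp5 and Irgm1 overlap exons of GENCODE M21, by as much as all 250 bases for Irgm1, and the ISRE of Gbp2 and those of Irgm1 lie inside annotated exons. The windows of Gbp7 and Igtp hold no annotated exon and are given whole, with ISRE and GAS matches in capitals.
Gbp7, plus strand, chr3:142530086-142530335: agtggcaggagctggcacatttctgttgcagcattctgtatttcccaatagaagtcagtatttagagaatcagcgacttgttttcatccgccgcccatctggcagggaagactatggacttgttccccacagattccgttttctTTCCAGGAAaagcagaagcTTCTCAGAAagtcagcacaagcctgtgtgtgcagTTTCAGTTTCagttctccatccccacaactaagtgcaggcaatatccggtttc
Igtp, plus strand, chr11:58199306-58199555: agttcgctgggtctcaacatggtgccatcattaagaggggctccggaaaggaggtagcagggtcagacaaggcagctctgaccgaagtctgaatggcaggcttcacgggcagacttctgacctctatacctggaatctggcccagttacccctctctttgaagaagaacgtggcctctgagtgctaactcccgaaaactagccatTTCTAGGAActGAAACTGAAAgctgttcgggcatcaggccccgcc

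In the Gbp7 window the GAS matches TTCCAGGAA and TTCTCAGAA lay 97 and 78 bases before the start, upstream of the ISRE. In the Igtp window a GAS, TTCTAGGAA, lay just before the ISRE, 36 bases before the start. The promoters of Igtp and Irgm2 were near-copies around the ISRE, with 90 of 94 bases identical (95.7%) from 60 bases before it to the start of Igtp. Over the whole overlap of the windows, aligned on the ISRE without gaps, 134 of 220 were identical (60.9%). Inserted or deleted bases lower that value, and a long identical run also lies further upstream in both windows, so the likeness is not confined to the ISRE. A motif match is a description of the letters and not of binding, which was not measured.

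Hippocampal RNA of 14 mice at 10 months of age was sequenced after perfusion, with 1 library per mouse. The 4 MRL mice were B6.MRL-Fas lpr animals, which lack functional Fas and are prone to lupus, and the 4 MRL-IRAK4-KD mice were MRL mice crossed with a kinase-dead IRAK4 line. The 3 IRAK4-KD mice carried the kinase-dead mutation alone, and the 3 C57BL/6 mice carried neither. All groups were on a C57BL/6 background, and the mutations are inherited in every cell, so no effect can be placed in a cell type. Libraries held between 279941472 and 572398312 counts, and p-values measure the spread between mice.

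The labels were checked with Fas and Irak4. Of the transcript Fas-201, 0 counts were found in the 8 MRL or MRL-IRAK4-KD mice, between 345 and 584 in C57BL/6, and 360 and 386 in IRAK4-KD replicates 1 and 2. The library labelled IRAK4-KD replicate 3 had 0 counts of Fas-201 and 514 of Fas-204, the pattern of the MRL libraries, so its label is in doubt and comparisons with IRAK4-KD are also given without it. Irak4 itself had 1.54 to 2.72 CPM (counts per 1000000 counts of the library, scaled by TMM factors) over all libraries, and a kinase-dead mutation need not alter its level. Markers of hippocampal neurons such as Prox1 and Wfs1 summed to between 893 and 2370 CPM. MRL-IRAK4-KD replicate 4 was set apart by 7780 CPM of choroid plexus markers, against 66.4 to 1839 in the remaining libraries, and results are also given without it.

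Within the Gbp cluster on chromosome 3 (mm10), Gbp2 (142620602 to 142638008, plus strand), whose product is recruited to parasite vacuoles, reached the highest level in CPM of any member. Gbp2 had 5.94, 4.99, 4.70 and 59.3 CPM in MRL replicates 1 to 4, 3.84, 3.65, 3.62 and 3.67 in MRL-IRAK4-KD, 3.58, 3.43 and 2.80 in C57BL/6, and 2.80, 2.24 and 2.30 in IRAK4-KD mice. All 4 MRL libraries lay above the other 10, and MRL replicate 4 stood 10.0 times above the next library. Gbp3 (142560026 to 142573209, plus strand), a close relative of Gbp7, had 7.64, 7.41, 6.39 and 33.8 CPM in MRL, 4.08, 4.89, 4.37 and 1.64 in MRL-IRAK4-KD, 4.83, 4.22 and 3.22 in C57BL/6, and 2.97, 3.17 and 2.85 in IRAK4-KD mice. All MRL values again lay above all others, and the lowest value was that of MRL-IRAK4-KD replicate 4.

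Gbp5 (142493978 to 142522344, plus strand), which promotes assembly of the NLRP3 inflammasome, had 3.90, 3.55, 3.10 and 40.5 CPM in MRL, 2.52, 3.19, 2.24 and 1.08 in MRL-IRAK4-KD, 2.83, 2.46 and 1.86 in C57BL/6, and 1.61, 1.42 and 1.91 in IRAK4-KD mice. MRL replicate 3 lay below MRL-IRAK4-KD replicate 2, so that the MRL and MRL-IRAK4-KD groups overlapped. Gbp7 (142530342 to 142550149, plus strand), which takes part in oxidative killing of microbes, had 8.27, 7.50, 6.98 and 30.7 CPM in MRL, 5.16, 6.50, 5.43 and 7.35 in MRL-IRAK4-KD, 6.90, 6.53 and 5.28 in C57BL/6, and 5.37, 5.37 and 4.79 in IRAK4-KD mice. MRL replicate 3 lay below MRL-IRAK4-KD replicate 4 for Gbp7, and 10.2% of the 100-base windows of the Gbp7 transcript also occur in Gm43802 or Gbp3, whose reads may have been divided between the genes.

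On chromosome 5, Gbp6 (105270702 to 105293698, minus strand) had 2.76, 2.99, 3.57 and 10.6 CPM in MRL, 1.79, 2.46, 2.58 and 1.48 in MRL-IRAK4-KD, 3.48, 2.73 and 1.54 in C57BL/6, and 1.68, 1.45 and 1.38 in IRAK4-KD mice. Its level is uncertain, since 82.9% of its 100-base windows also occur in Gm43302, Gbp10 or Gbp11. Gbp9 (105077630 to 105139539, minus strand), which overlaps Gbp4 and Gbp8, had 3.90, 4.41, 3.68 and 16.6 CPM in MRL, 2.35, 3.59, 2.43 and 0.37 in MRL-IRAK4-KD, 3.52, 2.79 and 2.01 in C57BL/6, and 1.45, 2.03 and 1.96 in IRAK4-KD mice. The value of 0.37 rests on 116 counts, the fewest of any member in any library. For both genes all MRL values lay above all MRL-IRAK4-KD values, and for Gbp6 a C57BL/6 mouse, at 3.48 CPM, lay above MRL replicates 1 and 2.

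Of the regulatory Irg genes on chromosome 11, Irgm1 (48861968 to 48871683, minus strand), which restrains the effectors and takes part in autophagy, had 11.7, 11.4, 10.5 and 31.7 CPM in MRL, 9.07, 9.30, 8.88 and 5.23 in MRL-IRAK4-KD, 9.57, 9.11 and 8.18 in C57BL/6, and 7.29, 6.69 and 6.33 in IRAK4-KD mice. The 4 MRL values were the highest, and the C57BL/6 and IRAK4-KD values did not overlap. Irgm2 (58199618 to 58222782, plus strand) had 6.66, 4.92, 4.58 and 25.9 CPM in MRL, 3.94, 4.31, 3.89 and 2.49 in MRL-IRAK4-KD, 4.14, 4.40 and 3.61 in C57BL/6, and 2.90, 2.61 and 2.74 in IRAK4-KD mice. Igtp (58199556 to 58207591, plus strand), also called Irgm3 and found on the endoplasmic reticulum and lipid droplets, had 4.26, 5.61, 4.08 and 33.0 CPM in MRL, 3.14, 3.42, 3.05 and 2.84 in MRL-IRAK4-KD, 3.13, 2.99 and 2.94 in C57BL/6, and 3.31, 2.07 and 2.27 in IRAK4-KD mice. For both genes all MRL values were above all others. The annotated span of Irgm2 overlaps that of Igtp on the same strand, with 2.48% of the windows of Irgm2 and 5.67% of those of Igtp shared, so their counts are not fully separate.

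The effector Iigp1 (chromosome 18, 60376027 to 60392634, plus strand) had 3.80, 2.75, 2.59 and 37.0 CPM in MRL, 2.56, 2.55, 2.27 and 3.22 in MRL-IRAK4-KD, 2.37, 2.14 and 1.81 in C57BL/6, and 2.03, 2.05 and 1.91 in IRAK4-KD mice. Outside MRL replicate 4 its values spanned 1.81 to 3.80 CPM, and MRL replicates 2 and 3 lay below MRL-IRAK4-KD replicate 4. MRL replicate 4 held the highest value of all 10 members. Means of the MRL group are therefore set largely by that mouse, and for Gbp2 the mean was 18.7 ± 27.1 CPM (SD, n = 4) against 3.70 ± 0.101 (SD, n = 4) in MRL-IRAK4-KD.

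**Figure D1:**
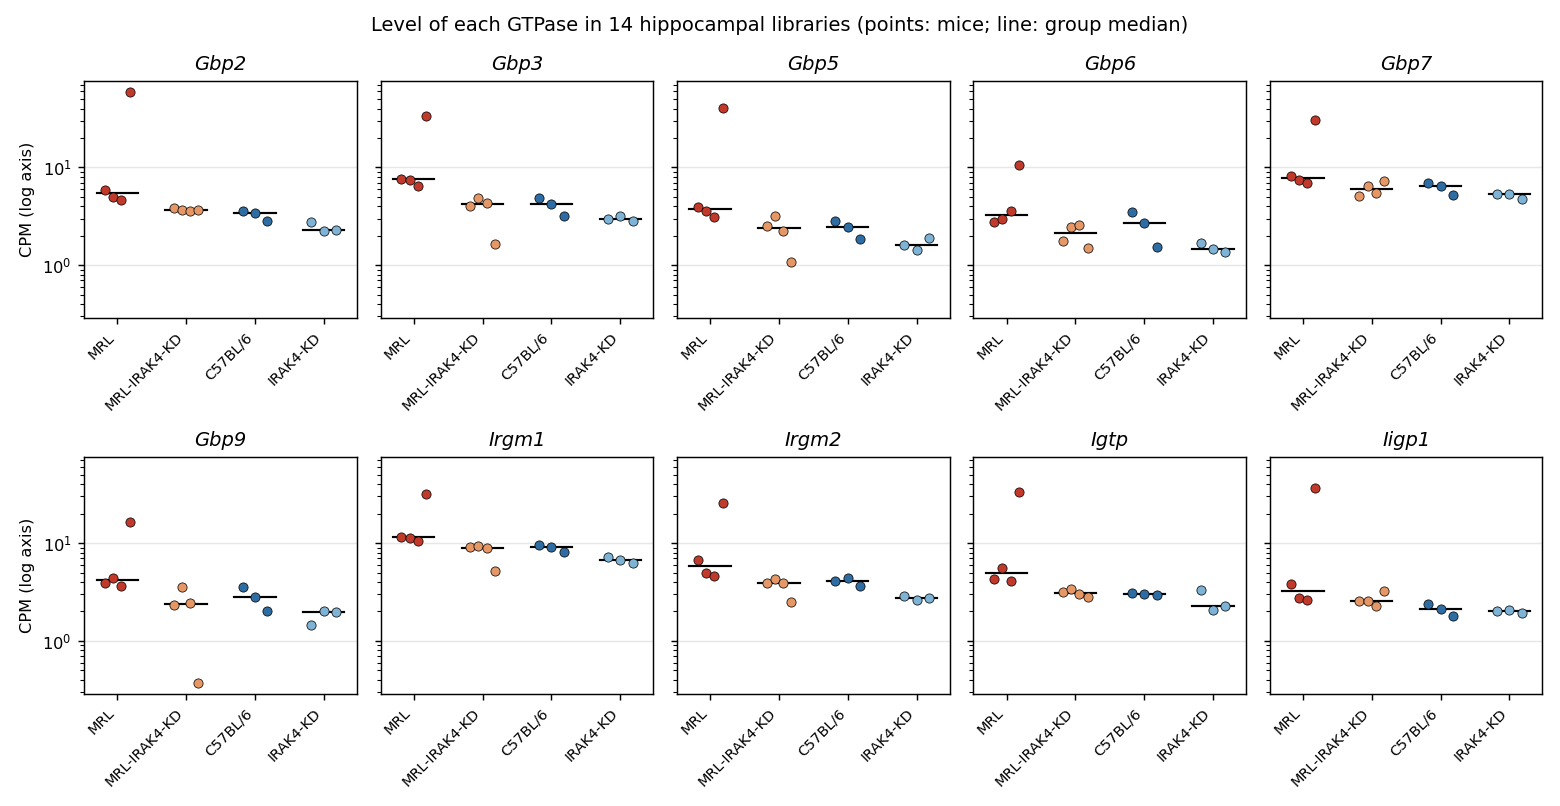
Level of each member in the 14 libraries, in CPM on a log axis, with 1 point per mouse and a line at the group median. MRL replicate 4 is the highest point of every panel, from 10.6 CPM for Gbp6 to 59.3 CPM for Gbp2, and the MRL points without it lie at 2.59 to 11.7 CPM.

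Compared per length of exons, the members formed a higher and a lower set in C57BL/6 mice. Irgm1 was highest at a median of 1.57 CPM per kb (1.41 to 1.65, n = 3), followed by Igtp at 1.48 (1.46 to 1.55), Gbp2 at 1.36 (1.11 to 1.42), Gbp3 at 1.29 (0.987 to 1.48), Gbp7 at 1.16 (0.94 to 1.23) and Irgm2 at 1.12 (0.978 to 1.19). The lower set held Gbp9 at 0.54 (0.389 to 0.681), Gbp6 at 0.459 (0.258 to 0.584), Gbp5 at 0.371 (0.281 to 0.427) and Iigp1 at 0.367 (0.311 to 0.406). Of neighbours in that order, the ranges of Igtp and Gbp2 and those of Irgm2 and Gbp9 did not overlap, and all others did. In MRL replicate 4 the order differed, with Gbp2 at 23.6 CPM per kb, Igtp at 16.3, Gbp3 at 10.4, Irgm2 at 7.02, Iigp1 at 6.35, Gbp5 at 6.11, Gbp7 at 5.47, Irgm1 at 5.46, Gbp9 at 3.20 and Gbp6 at 1.78. Irgm1, the highest member in C57BL/6 mice, was thus among the lower members in that library.

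**Figure D2:**
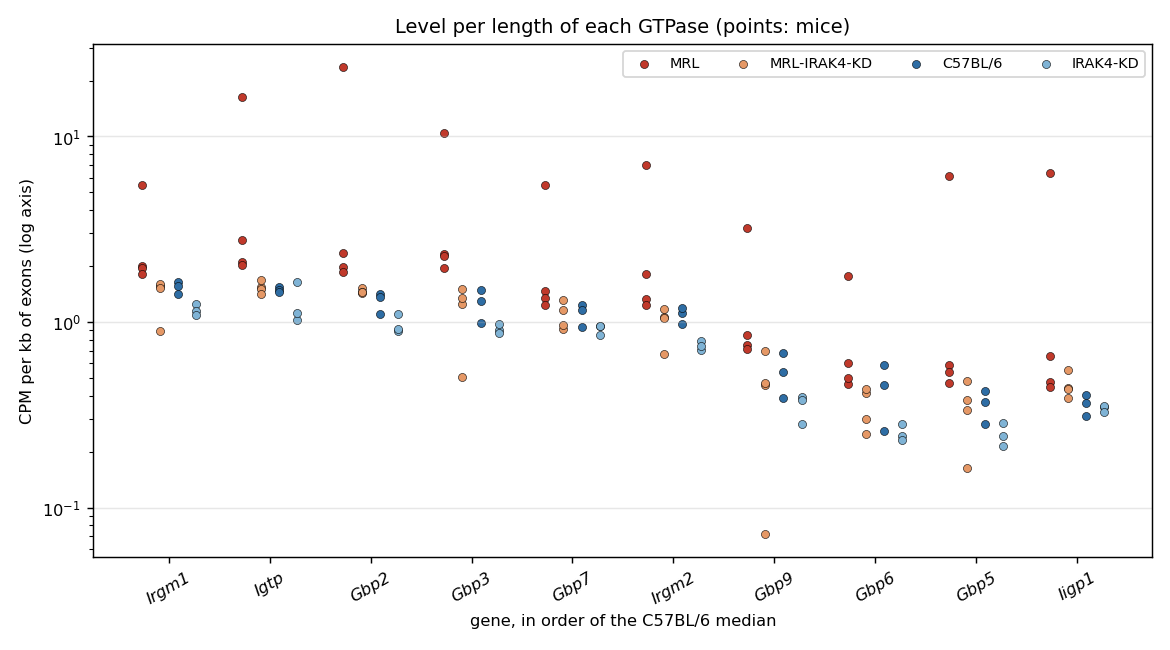
Level of each member per kb of exons, in CPM per kb on a log axis, with 1 point per mouse and genes ordered by the C57BL/6 median. From Irgm1 (1.57) to Irgm2 (1.12) the C57BL/6 medians lie above 1 CPM per kb, and from Gbp9 (0.54) to Iigp1 (0.367) below it, while MRL replicate 4 reaches 23.6 for Gbp2.

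Whether loss of IRAK4 kinase activity altered the GTPases in lupus-prone mice was addressed by MRL against MRL-IRAK4-KD. All 10 members were higher in MRL, with a median log2 fold change of 1.79 against 0.0023 over all 38070 genes tested. None passed edgeR's quasi-likelihood test at an adjusted p (Benjamini-Hochberg over all genes) below 0.05, a threshold that 0.0972% of all genes passed, and all 10 had an unadjusted p below 0.05, as did 5.14% of all genes in that direction. In bulk tissue a larger number of responding cells and more RNA per cell cannot be told apart.

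Differences were largest for Gbp5 at a log2 fold change of 2.50 ± 0.728 (SE, edgeR adjusted p = 0.4) and Gbp2 at 2.34 ± 0.682 (adjusted p = 0.4), followed by the effector Iigp1 at 2.12 ± 0.70 (adjusted p = 0.415). Igtp was at 1.91 ± 0.556, Gbp3 at 1.88 ± 0.493, Gbp9 at 1.71 ± 0.586 and Irgm2 at 1.52 ± 0.453. Gbp6 was at 1.26 ± 0.40, Gbp7 at 1.13 ± 0.391 and Irgm1, which had the highest level per length in C57BL/6 mice, at 1.01 ± 0.311. The lowest adjusted p was that of Gbp3, 0.335, and the highest was 0.432. The 4 MRL mice lay above the 4 MRL-IRAK4-KD mice without overlap for 7 members (3.13% of all genes did so in this direction), and their 2-sided exact permutation p of 0.0286 is the smallest that this size allows. Gbp5 and Gbp7 had an exact permutation p of 0.0571 and Iigp1 of 0.171, among 60 such tests over 10 members and 6 comparisons, none of them adjusted.

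The size of the differences rested on MRL replicate 4. Without it the median log2 fold change was 0.58, 0 members were called by edgeR and 8 had an unadjusted p below 0.05, against 3.44% of all genes in that direction. Gbp3 was then at 0.95 ± 0.29, Gbp9 at 0.88 ± 0.495, Gbp5 at 0.65 ± 0.296, Igtp at 0.60 ± 0.185, Gbp6 at 0.59 ± 0.27 and Irgm2 at 0.57 ± 0.201. Gbp2 was at 0.51 ± 0.15, Irgm1 at 0.48 ± 0.182, Gbp7 at 0.33 ± 0.15 and Iigp1 at 0.22 ± 0.182, and the adjusted p was 0.643 for all but Iigp1 (0.699). The order of the members by fold change thus differed between the fits, with Iigp1 in the upper part with that library and last without it. With replicate 4 of both groups left out, the median was 0.44, 0 were called and 8 had an unadjusted p below 0.05, Gbp3 having the lowest adjusted p, 0.174, at 0.69 ± 0.147. No share of all genes is given here for that fit. DESeq2, the tool of the study, called Gbp3 (adjusted p = 0.00923) and Irgm2 (adjusted p = 0.0404) among 6 members for which it gave a p, and limma-voom with quality weights called 0, with 5 at an unadjusted p below 0.05. DESeq2 was run with its default screen for outlying counts, under which a gene can be left without a p. Its member counts therefore cover only the members that were given one. Shares of all genes called or at an unadjusted p below 0.05 are those of edgeR fits throughout, and none is given for DESeq2 or limma-voom.

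**Figure D3:**
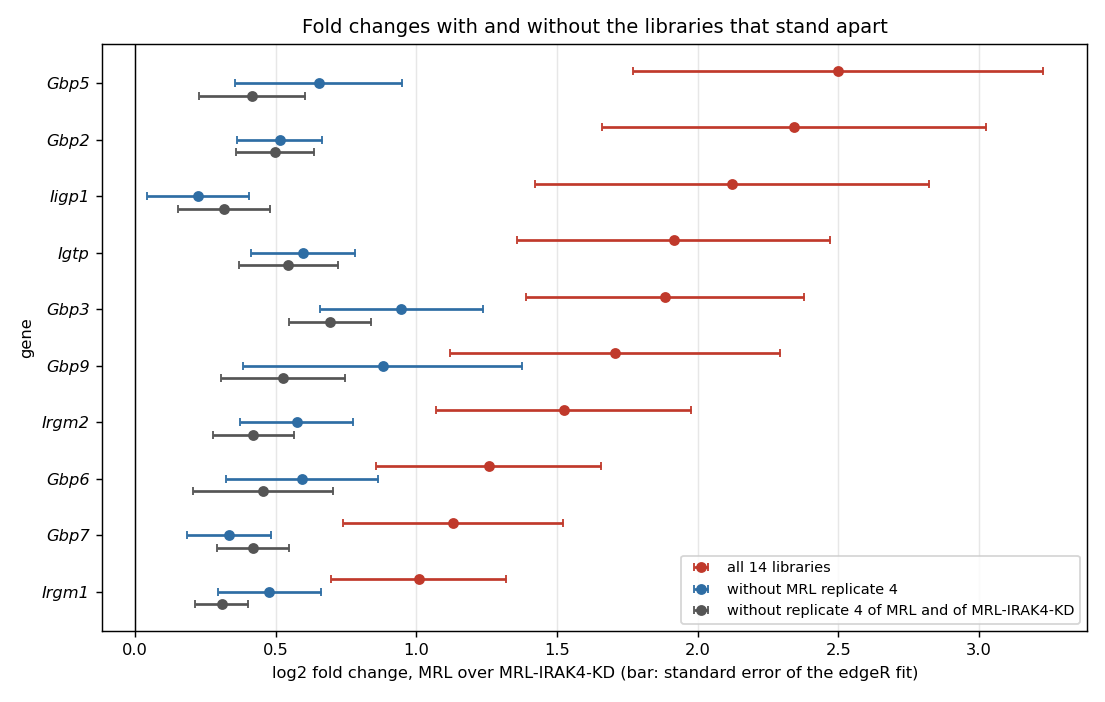
Log2 fold change of MRL over MRL-IRAK4-KD for each member, with bars of 1 standard error of the edgeR fit, in all libraries, without MRL replicate 4, and without replicate 4 of both groups. With all libraries the values run from 1.01 to 2.50, and without MRL replicate 4 from 0.22 to 0.95.

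The comparison of MRL with C57BL/6 addressed the lupus-prone background itself, and it shares the MRL libraries with the comparison above. All 10 members were higher in MRL, with a median of 1.57 against -0.0046 over all genes, and neither members nor any other gene passed the adjusted threshold (0% of all genes). Unadjusted, 9 members had an edgeR p below 0.05, against 3.16% of all genes in that direction, while DESeq2 called 0 of the 6 members for which it gave a p (all 6 unadjusted) and limma-voom called 0 with 1 unadjusted. Gbp2 was at 2.52 ± 0.768 (adjusted p = 0.692), Iigp1 at 2.45 ± 0.792, Gbp5 at 2.42 ± 0.811 and Irgm1 at 0.87 ± 0.34. Gbp9, at 1.36 ± 0.641 (unadjusted p = 0.0521), and Gbp6, at 0.95 ± 0.436, had the highest adjusted p, 0.899. For 9 members, all but Gbp6, the groups did not overlap (4.47% of all genes in that direction), which gives the smallest exact permutation p this size allows, 0.0571. Without MRL replicate 4 the median was 0.55 and 4 members had an unadjusted p below 0.05. The 3.16% belongs to the fit of all libraries, and no share of all genes is given here beside the 4 members.

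Of the 6 comparisons, the median fold change was largest against IRAK4-KD mice. Compared with that group, which differs in both background and IRAK4, all 10 members were higher in MRL with a median of 2.09 (all genes -0.0091), and the groups of all 10 did not overlap (6.74% of all genes in that direction). edgeR called 0 members (0.441% of all genes called), and 10 had an unadjusted edgeR p below 0.05, against 5.68% of all genes in that direction. DESeq2 called all 6 members for which it gave a p, and limma-voom called 1 (7 unadjusted), with no share of all genes given here for either tool. By edgeR, Gbp5 was at 2.95 ± 0.833, Gbp2 at 2.94 ± 0.784 and Iigp1 at 2.53 ± 0.795, with adjusted p from 0.124 to 0.292 over the members. Without MRL replicate 4 the median was 1.02 and Gbp2 was called, at 1.10 ± 0.163 (adjusted p = 0.0103), where 0.252% of all genes were called. With replicate 4 of MRL and of MRL-IRAK4-KD left out, 8 members were called (1.95% of all genes), all but Gbp6 and Iigp1. Without the doubtful library IRAK4-KD replicate 3 the median was 2.08 and 0 members were called by edgeR.

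No member differed detectably between MRL-IRAK4-KD and C57BL/6 mice. Of the 10, 3 were higher and 7 lower in MRL-IRAK4-KD, with a median of -0.10 (all genes -0.009), and edgeR called 0 (0.0972% of all genes) and gave 0 at an unadjusted p below 0.05 (8.62% of all genes). Values ran from -0.34 ± 0.615 for Gbp9 to 0.33 ± 0.734 for Iigp1, each smaller in size than its standard error (0.332 to 0.747). Those standard errors come from the fit of all 4 groups, so MRL replicate 4, which is in neither group compared, partly sets them. Without MRL-IRAK4-KD replicate 4 the median was 0.05 with 7 members higher, so the direction of this comparison depends on that library. Gbp2 was the member whose groups did not overlap (3.7% of all genes in the higher direction), at 3.62 to 3.84 CPM against 2.80 to 3.58.

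IRAK4-KD mice had the lowest group median of every member. Against C57BL/6 all 10 members were lower in IRAK4-KD, with a median of -0.43 (all genes -0.0079), edgeR called 0 (0.147% of all genes) and 0 had an unadjusted p below 0.05 (2.13% of all genes in that direction). Gbp6 was at -0.78 ± 0.459, Gbp9 at -0.61 ± 0.663, Irgm2 at -0.56 ± 0.514 and Irgm1 at -0.40 ± 0.357, each with an edgeR adjusted p of 1. Gbp2, Gbp3, Irgm1 and Irgm2 did not overlap between the groups (5.52% of all genes in the lower direction), with an exact permutation p of 0.1, the smallest for 3 mice against 3. The spread of these fits is set partly by MRL replicate 4, since all groups share it. Without that library 3 members had an unadjusted p below 0.05, and with replicate 4 of both MRL groups left out 7 did, Irgm1 having the lowest adjusted p, 0.15, at -0.40 ± 0.0936. The 2.13% above belongs to the fit of all libraries. Shares of all genes in these reduced fits are not given here, so these counts cannot be set against them. Without IRAK4-KD replicate 3 the median was -0.40, and 0 members were called.

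Over IRAK4-KD, MRL-IRAK4-KD mice were higher for all 10 members with a median of 0.36 (all genes 0), edgeR called 0 (0.0735% of all genes), and 0 had an unadjusted p below 0.05 (5.18% of all genes in that direction). Gbp2 and Iigp1 did not overlap between these groups (4.31% of all genes in the higher direction). With replicate 4 of MRL and MRL-IRAK4-KD left out the median was 0.56, and 7 members had an unadjusted p below 0.05, and without IRAK4-KD replicate 3 the median was 0.35 with 0 called. The 5.18% belongs to the fit of all libraries, and no share of all genes is given here beside the 7 members. The interaction was the log2 fold change of MRL over MRL-IRAK4-KD less that of C57BL/6 over IRAK4-KD. A positive value thus means a larger decrease with the mutation in MRL than on the C57BL/6 background. It was positive for all 10 members with a median of 1.26. For it edgeR called 0 (0.00263% of all genes) and 0 had an unadjusted p below 0.05 (4.17% of all genes in either direction). In these last 4 comparisons, the interaction included, DESeq2, which gave a p for 6 members, and limma-voom called 0, and the only unadjusted p below 0.05 was 1 member by DESeq2 in the interaction. The interaction was 2.05 ± 1.04 for Iigp1 and 0.48 ± 0.603 for Gbp6, and without MRL replicate 4 the median was 0.11, against 1.25 without IRAK4-KD replicate 3. With both replicate 4 libraries left out 5 of the 10 were positive at a median of -0.0041, so a greater effect of the mutation in MRL was not shown for the family.

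Few genes had an excess of this size in MRL replicate 4. That library held the highest value for all 10 members, and for 6.54% of the 23394 genes with a mean of at least 0.1 CPM. Over the median of the other 13 libraries it was 16.5-fold higher for Gbp5, 16.4-fold for Gbp2, 15.6-fold for Iigp1 and 10.6-fold for Igtp. Gbp3 was 8.01-fold higher, Gbp9 6.82-fold, Irgm2 6.58-fold, Gbp7 4.72-fold, Gbp6 4.29-fold and Irgm1 3.50-fold, and 1.09% of those genes reached 3.50-fold. The remaining 3 MRL mice lay above all 10 libraries of other groups for Gbp2, Gbp3, Gbp9, Irgm1, Irgm2 and Igtp, as for 1.47% of those genes. Their median was 1.08 (Iigp1) to 1.76 (Gbp3) times the MRL-IRAK4-KD median over the 10 members.

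The same library held the highest value for 16 of 21 other interferon-inducible GTPases, the exceptions being Gm4841, Gm5431, 9930111J21Rik1 and 9930111J21Rik2, named after their values were seen, and Mx2. Of the 21 other interferon-inducible GTPases, 20 were higher in MRL than in MRL-IRAK4-KD with a median of 1.98, 0 were called by edgeR and 16 had an unadjusted p below 0.05. Gbp4, which neighbours Gbp9, had 54.9 CPM in MRL replicate 4 and 0.576 to 4.20 in the others. Tgtp1 and Tgtp2, near-copies on chromosome 11 that were named after their values were seen, had 41.9 and 41.4 CPM there and at most 3.67 and 3.86 elsewhere. Gm12250 was at 2.64 ± 0.72 in the comparison, and the very large GTPases Gvin1 and Gm4070 at 1.99 ± 0.522 and 1.98 ± 0.516 with nearly equal counts in every library, so these last 2 cannot be counted as separate. Mx2, an antiviral dynamin-like GTPase, was at 0.69 ± 0.171 and, unlike the Gbp genes, had 0.96 CPM in MRL replicate 4 against 0.866, 0.886 and 0.997 in the other MRL mice. Without MRL replicate 4 the list's median was 0.76 and 7 genes had an unadjusted p below 0.05.

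Upstream of the GTPases, transcripts of the interferons were at or near 0. Ifng had 14 counts in MRL replicate 4, 7 in MRL-IRAK4-KD replicate 1, 14, 15 and 2 in the IRAK4-KD libraries and 0 in all others, and Ifnb1, Ifnl2 and Ifnl3 had 0 in all 14, and these 4 were named after their values were seen. Of 9 ligands and receptors tested, 5 were higher and 4 lower in MRL than in MRL-IRAK4-KD, and 0 had an unadjusted p below 0.05. The receptor chains Ifnar1 (0.28 ± 0.138) and Ifngr1 (0.21 ± 0.111) had the smallest p of the list, followed by the chains Il10rb (0.19 ± 0.185) and Ifnlr1 (-0.27 ± 0.351). Of 16 kinases and transcription factors of the pathway, 15 were higher with a median of 0.36, and 7 had an unadjusted p below 0.05. Those of smallest p included Irf7 at 1.07 ± 0.24, Irf9 at 0.51 ± 0.123, and Nlrc5, the activator of MHC class I genes, at 1.34 ± 0.411.

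These factors differed in how far they rested on the single mouse. Irf7 had 2.73, 3.23, 2.99 and 6.02 CPM in MRL against 1.64, 1.99, 1.41 and 2.11 in MRL-IRAK4-KD, and was at 0.76 without MRL replicate 4. Nlrc5 had 1.71, 1.51, 1.36 and 6.01 CPM in MRL against 0.949, 1.34, 0.926 and 0.953 in MRL-IRAK4-KD, and was at 0.57 without it. Among 9 feedback inhibitors 7 were higher and 4 had an unadjusted p below 0.05, with Socs3 at 1.52 ± 0.375, Usp18 at 0.87 ± 0.261, Ptpn6 at 0.42 ± 0.155 and Cish at 0.42 ± 0.171. None of these lists held a gene called by edgeR.

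Of 35 other interferon-stimulated genes, 33 were higher in MRL with a median of 0.80, and 25 had an unadjusted p below 0.05. They included the RNA sensor Ifih1 at 0.80 ± 0.182, Ifit3 at 1.01 ± 0.239, the nuclear body protein Sp100 at 0.99 ± 0.243 and the chemokine Cxcl10 at 1.78 ± 0.446. Without MRL replicate 4 the median was 0.52 and 12 genes had an unadjusted p below 0.05. Ifit3 departed from the pattern of the members, as the C57BL/6 and IRAK4-KD mice had 5.97 to 12.8 CPM against 4.64 to 9.12 in MRL. The proteins that act with the GTPases, such as inflammasome and autophagy components, were divided, with 12 of 25 higher, 13 lower and a median of -0.0042. Among them Aim2, the DNA sensor whose activation the Gbp proteins promote, was at 0.68 ± 0.213, Casp4 at 0.99 ± 0.403, Trim21 at 0.56 ± 0.236 and Atg3 at -0.18 ± 0.08.

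**Figure D4:**
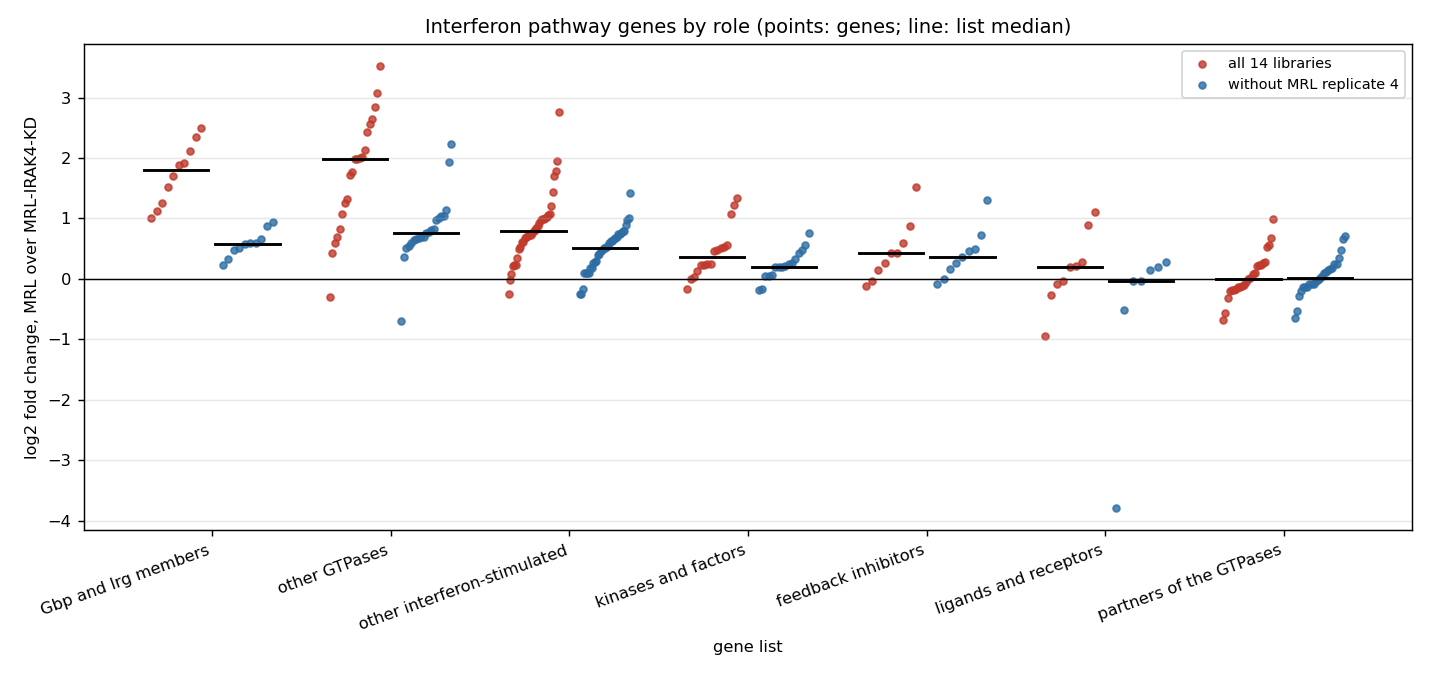
Log2 fold change of MRL over MRL-IRAK4-KD for the members and 6 lists of pathway genes, with all libraries and without MRL replicate 4, where a point is a gene and a line the list median. The members (1.79) and the other GTPases (1.98) have the highest medians with all libraries, at 0.58 and 0.76 without MRL replicate 4, and the ligands, receptors and partners lie around 0 in both. The lowest point is Ifng, with 7 counts in MRL-IRAK4-KD and 0 in the 3 remaining MRL libraries.

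Cell type markers moved with the members in part. Brain endothelial markers summed to 311 CPM in MRL replicate 4 and to 169 to 190 in the other MRL libraries, against 113 to 146 in MRL-IRAK4-KD, 110 to 130 in C57BL/6 and 78.8 to 91.1 in IRAK4-KD. All 8 endothelial markers were higher in MRL than in MRL-IRAK4-KD with a median of 0.67, 6 had an unadjusted p below 0.05, and 1, the transporter Slco1a4, named for that reason, was called (edgeR adjusted p = 0.0434). Microglial markers summed to 350 to 451 CPM in MRL, 311 to 339 in MRL-IRAK4-KD, 295 to 316 in C57BL/6 and 290 to 318 in IRAK4-KD, and MRL replicate 4, at 379, was not the highest. Border macrophage markers had 43.6 CPM in MRL replicate 4 and 11.3 to 27.7 in the others. Astrocyte markers summed to 1920 to 2260 CPM in MRL, 1910 to 2190 in MRL-IRAK4-KD, 1930 to 2040 in C57BL/6 and 1750 to 2000 in IRAK4-KD. Of 6 astrocyte markers 5 were higher in MRL than in MRL-IRAK4-KD, with a median of 0.14 and 0 at an unadjusted edgeR p below 0.05. Red cell markers summed to 83.9 to 369 CPM in MRL, 52.9 to 193 in MRL-IRAK4-KD, 43.6 to 93.6 in C57BL/6 and 19.8 to 55.3 in IRAK4-KD, with 356 in MRL replicate 4. All 5 red cell markers were higher in MRL than in each of the other groups, with a median of 1.68 over MRL-IRAK4-KD (3 at an unadjusted edgeR p below 0.05), 1.65 over C57BL/6 (5) and 2.77 over IRAK4-KD (5, of which 1 was called). Lymphocyte markers, 12 genes, were low in MRL, at 1.93 to 2.87 CPM, and likewise in MRL-IRAK4-KD (1.88 to 3.02) and C57BL/6 (1.9 to 2.82). They reached 7.01 CPM in the library labelled IRAK4-KD replicate 3. Markers of hippocampal neurons summed to 893 to 1390 CPM in MRL, 1150 to 2370 in MRL-IRAK4-KD, 973 to 1240 in C57BL/6 and 1270 to 1600 in IRAK4-KD. The highest of these sums was that of MRL-IRAK4-KD replicate 4. Of the 10 markers 9 were lower in MRL than in MRL-IRAK4-KD and 1 was higher, with a median of -0.32. Of those lower, 4 had an unadjusted edgeR p below 0.05. The part of these cell types in the member levels was not tested.

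**Figure D5:**
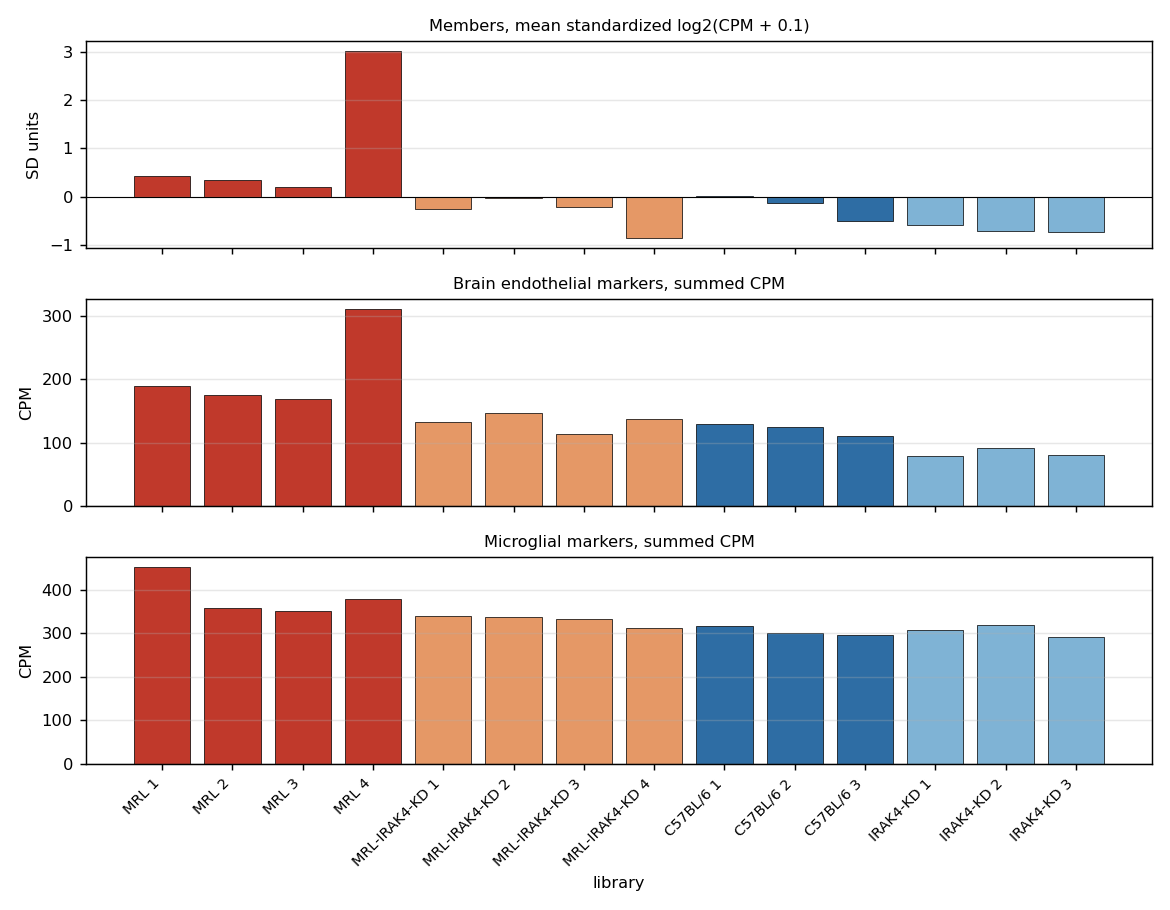
Mean standardized level of the 10 members (in SD units over the 14 libraries) and summed CPM of 8 endothelial and 8 microglial markers, with 1 bar per library. MRL replicate 4 is highest for the members (3.02 SD) and for endothelial markers (311 CPM), and MRL replicate 1 for microglial markers (451 CPM).

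The members varied together across the libraries. Over the 14 libraries the Pearson correlation of log2 CPM between pairs of members had a median of 0.925 (0.654 to 0.989, 45 pairs), and without MRL replicate 4 it had a median of 0.738 (0.0232 to 0.97). With replicate 4 of MRL-IRAK4-KD also left out it was 0.852 (0.601 to 0.971), the lowest pair being Gbp6 and Iigp1 and the highest Gbp2 and Irgm1. These points share libraries, group and depth, and the values are descriptive. Of 23384 other genes with a mean of at least 0.1 CPM, the 10 most like the mean of the members were Apol10b (r = 0.981), Gbp4 (0.978), AC091309.4 (0.974), Nlrc5 (0.971), Gm18853 (0.963), Tap1 (0.959), Gm4070 (0.958), H2-Q4 (0.958), Apobec3 (0.956) and Parp9 (0.955). Without MRL replicate 4, r was 0.912 for Apol10b, 0.901 for Gbp4, 0.90 for Nlrc5 and 0.771 for Tap1.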

How the data were processed

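The authors aligned hippocampal RNA-seq reads to mm10 with HISAT2 2.1.0 and SAMtools 1.9, and deposited whole-number StringTie 2.1.0 counts per gene and per transcript, not normalized. StringTie computes such counts from coverage, and library totals came to 1.40 to 2.08 counts per read, so counts are not independent molecules. The annotation was not given in the sources used here, and all 55536 Ensembl identifiers matched GENCODE M21. A further 26345 rows that name no Ensembl gene, 0.0254% to 0.188% of counts, were left out. The library kit is SMART-seq in the methods of the paper and KAPA HyperPrep in the labels.

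The 38070 genes whose counts summed to 10 or more were modelled by edgeR 4.0.16 in R 4.3.3 (robust quasi-likelihood, TMM, 4 groups in 1 fit), and called at a Benjamini-Hochberg adjusted p below 0.05 over all genes. Replicates are separate mice. CPM are TMM-scaled, per kb of exon union where genes are compared, and exact permutation tests used log2(CPM + 0.1). Alternatives were DESeq2 1.42.0, limma-voom (limma 3.58.1), RLE and library-size scaling, other filters, only the 2 groups compared, the replicate block, a pseudocount of 1 and each mouse left out, and dropping both replicate 4 libraries, or IRAK4-KD replicate 3 for the pathway lists, was added after values were seen. The fits were also run on simulated counts, with shifts planted in all MRL libraries alike and no library set apart. That setting differs from these data, so it does not bear on differences that rest on 1 mouse.

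Members and gene lists were chosen with earlier results of these data known. Named genes are the members, the 4 genes of smallest p of each pathway list in MRL over MRL-IRAK4-KD, and the 10 genes most correlated with the members, and 1 gene so chosen is not reported here.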

Additional observations from a re-analysis of the deposited data

Results flagged for a closer look

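In the groups of 4 mice, each member's highest and lowest library was compared with the rest of its group by Dixon's criterion, which sets the gap to the nearest library against the group's range. Chance flags about 1 in 20 groups, and 11 of the 20 were flagged, of which 10 were MRL replicate 4 on the high side. Its values were 59.3 CPM for Gbp2, 33.8 for Gbp3, 40.5 for Gbp5, 10.6 for Gbp6, 30.7 for Gbp7, 16.6 for Gbp9, 31.7 for Irgm1, 25.9 for Irgm2, 33.0 for Igtp and 37.0 for Iigp1. The remaining flag was MRL-IRAK4-KD replicate 4 on the low side for Irgm1, at 5.23 CPM against 8.88 to 9.30 in the other MRL-IRAK4-KD mice. The 10 flags of MRL replicate 4 come from 1 mouse and are not independent of each other.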

How the results depend on the processing

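All members stayed higher in MRL than in MRL-IRAK4-KD mice under the 26 alternatives (260 of 260 fold changes), with 2 of the 260 called, both by DESeq2. Of the 6 members for which DESeq2 gave a p, it called 2 in that comparison, with 6 at an unadjusted p below 0.05, and of all 10 limma-voom gave 5 unadjusted. For MRL over C57BL/6, the unadjusted count of 9 became 1 with limma-voom and 0 when only the 2 groups compared were fitted, and ranged from 4 to 9 over single mice left out. For MRL over IRAK4-KD, DESeq2 called 6 of 6 (6 unadjusted) and limma-voom 1 of 10, the fit of the 2 groups gave 6 unadjusted, single mice left out gave 0 to 1 called, and 8 were called without both replicate 4 libraries. At an unadjusted threshold 10, 9 and 10 members passed in these comparisons. The cause of the differences between tools was not tested. Same-numbered mice did not pair (correlation of deviations -0.251 to 0.374 over 19 pairs, 4 above 0.1). With the replicate block, 0 members were called in any comparison, and 7, 0 and 7 had an unadjusted p below 0.05 where MRL was set against MRL-IRAK4-KD, against C57BL/6 and against IRAK4-KD. With MRL-IRAK4-KD replicate 4 and MRL replicate 4 left out, MRL-IRAK4-KD over C57BL/6 changed sign for Gbp3 (0.12), Gbp5 (0.15), Gbp9 (0.0069) and Irgm1 (0.02).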

Other observations

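The 50 genes tested within 1 Mb of Irgm1 on chromosome 11 include further Irg genes, and over C57BL/6 mice, 3 were higher and 7 lower in IRAK4-KD at an unadjusted edgeR p below 0.05. Tgtp2 had 0.629, 0.398 and 0.341 CPM in IRAK4-KD and 1.59, 2.75 and 2.14 in C57BL/6, and Ifi47 had 0.325, 0.325 and 0.265 against 0.801, 1.26 and 0.742. Both groups of values stood apart, in a comparison in which 5.52% of all genes were lower in IRAK4-KD without overlap. The GTPase gene 9930111J21Rik2 had 0.456, 0.548 and 0.508 CPM in IRAK4-KD against 2.31, 1.99 and 1.33 in C57BL/6, and was the gene called lower in this window, at -1.90 ± 0.264 (edgeR adjusted p = 0.00632). That call was lost without the doubtful library IRAK4-KD replicate 3, at -1.90 ± 0.318 (adjusted p = 0.0566). Another GTPase gene of the window, Gm5431, went the other way, with 0.354, 0.626 and 0.458 CPM in IRAK4-KD against 0.181, 0.188 and 0.113 in C57BL/6, at 1.58 ± 0.377 (edgeR unadjusted p = 0.000965, adjusted p = 0.367). Without MRL replicate 4, edgeR also called Tgtp1 at -1.98 (adjusted p = 0.037), Tgtp2 at -2.24 (adjusted p = 0.0312) and Ifi47 at -1.61 (adjusted p = 0.0353). With IRAK4-KD replicate 3 left out as well, these were at -1.89, -2.07 and -1.52, and none was called (edgeR adjusted p = 0.261, 0.219 and 0.245). MRL-IRAK4-KD mice, which carry the same mutation, had 1.81, 2.02, 1.79 and 1.5 CPM of 9930111J21Rik2, and were above IRAK4-KD by 1.82 (edgeR adjusted p = 0.0118; 0.132 without IRAK4-KD replicate 3). These 5 genes were named after their values were seen. Tgtp1 and Tgtp2 are near-copies whose reads may be divided between them.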
